A study of Spodoptera exigua with 2 samples.

Results

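The cells described here were the hemocytes of immune-challenged *Spodoptera exigua* larvae in which transcripts of cecropin B (SPEXI_LOCUS6878) took up at least 400 of every 10000 transcripts. A further 3 clauses set upper limits on other genes. A member had less than 100 per 10000 of SPARC (SPEXI_LOCUS820), less than 200 of the prophenoloxidases PPO1 and PPO2 together (SPEXI_LOCUS6221 and SPEXI_LOCUS6527) and less than 150 of hemicentin 2-like and BLL4 together (SPEXI_LOCUS173 and SPEXI_LOCUS5407). Only cells with at least 2000 unique molecular identifiers (UMIs, one for each captured mRNA molecule) were considered. This rule took 794 of 9347 challenged cells of that depth (8.49%, 95% interval 7.94 to 9.08), out of 12530 challenged cells and 27396 cells in both libraries. The remaining 8553 challenged cells of that depth are called the other cells.

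Hemocytes of the beet armyworm were profiled by 10x Chromium 3′ single-cell RNA sequencing in 1 challenged and 1 naïve library. The challenge was a dose of 140000 dead (heat-killed) *E. coli* TOP10 bacteria in each animal, given by proleg at the start of the fifth instar, and PBS was the control. Both treatments lasted 8 h at room temperature. Hemolymph of the larvae of a treatment was pooled, so that a library holds many animals but is 1 sample. Treatment and library therefore cannot be told apart, and the comparisons carry no test.

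Cecropins are short cationic peptides that are secreted into the hemolymph and kill bacteria by disrupting their membranes. In *Drosophila*, peptidoglycan of Gram-negative bacteria is sensed by peptidoglycan recognition proteins (PGRPs), which switch on the IMD pathway, while the Toll pathway is set off by the cleaved ligand Spätzle, and both end in NF-kB factors that turn on such peptides. PGRP-LB is an amidase which degrades peptidoglycan and restrains the IMD response in *Drosophila*. The fat body is the main source of antimicrobial peptides in insects, and hemocytes make them as well.

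The challenged library had 94500088 UMIs with a median of 5278 per cell, and cecropin B took 1.95% of them, against 0.274% of 81253288 UMIs in the naïve library. The Scrublet routine called 194 challenged cells as doublets (1.55%), among them 10 members (1.26%), and these were kept. The routine had been given a higher expected rate than this, so some mixtures of cells may have gone uncalled. Of the barcodes, 44 occurred in both libraries, 4 of them as members. All intervals are exact at 95% (Clopper-Pearson for shares, Poisson for levels, conditional binomial for ratios) and cover counting error only. A cell's level of a gene is given per 10000 of its UMIs. A level of a group of cells is given in CPM, the gene's UMIs for each 1000000 UMIs summed over the group, and a ratio is that of 2 such levels.

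Members carried cecropin B at 400.1 per 10000 at the lowest, 574 at the median and 1850 at the highest, which corresponded to between 85 and 3547 cecropin B molecules in a cell. The other cells had a median of 44.3. The members were chosen by these cecropin B values and by the levels of the genes in the clauses, which are therefore given as a description. Of all challenged cells of the same depth, 1600 (17.1%, 16.4 to 17.9) reached the cecropin B level, and the clauses removed 741 of them for SPARC, 41 for hemicentin 2-like and BLL4 and 25 for PPO, 1 of them for more than 1 reason. The members were thus not the only strong expressers. The 41 cells removed for hemicentin 2-like and BLL4 had a higher median of 843, and the highest level of the library, 2373, belonged to one of them. Members held 9.13% of the library's UMIs but 27.8% of its cecropin B, 21.0% of its cecropin A1 and 18.7% of its PGRP-LB UMIs, and the removed strong expressers held 23.9%, 20.7% and 37.9%.

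No gap separated members from the cells just outside. There were 62 cells with 400 to 420 per 10000 of cecropin B and 73 cells which passed every other clause with 380 to 400. Their median cecropin A1 was 93.0 and 99.5 per 10000. At the SPARC limit, 77 members lay between 90 and 100 and 77 removed cells between 100 and 110, with medians of PGRP-LB of 101 and 113 per 10000. In naïve larvae, 66 of 9280 cells of at least 2000 UMIs passed the whole rule (0.711%, 0.550 to 0.904), and 67 reached the cecropin B level at all, so that the clauses removed only 1 naïve cell.

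Cecropin B molecules were also counted in cells that mostly had little of it. Among 1586 challenged cells rich in procathepsin H (at least 500 per 10000), the median was 7.48 per 10000 at a median depth of 2611 UMIs, and after thinning to 2000 UMIs 76.4% of them still had at least 1 cecropin B molecule. In the members the share was 100% at a median depth of 8263 UMIs, which the rule on this gene all but fixed. Whether the molecules in the procathepsin H-rich cells were made by those cells was not tested. Levels were used in place of the presence of a single molecule of cecropin B or A1.

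Of the 3 genes named as markers of these cells, cecropin A1 (SPEXI_LOCUS6881), the second cecropin, was higher in members than in the other cells. It was not particular to members. It ranged from 9.85 per 10000 through a median of 127 to 474 in members, while the other cells had a median of 20.4 and 1122 of them had none. In the procathepsin H-rich cells the median was 2.46, 10% of cells were at 13.2 or more, and 43.2% had at least 1 cecropin A1 molecule at 2000 UMIs. The lowest member lay within that range. Cecropin A1 was at 12857 CPM in members and 5026 in the other cells, a ratio of 2.56 (2.54 to 2.57). The 741 strong expressers removed for SPARC had more of it, with a median of 148 per 10000 and 15600 CPM. PGRP-LB (SPEXI_LOCUS6461) did not mark all members. It ranged from 0 to 663 per 10000 with a median of 17.5, it was absent from 130 members, and 386 members (48.6%, 45.1 to 52.2) had at least 20. The summed ratio of 2.33 (2.30 to 2.35) for PGRP-LB, 3895 against 1675 CPM, was an average over cells with much of it and cells with almost none. It was 1.68 with cecropin B of at least 300 per 10000, and 0.255 with SPARC below 20.

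SPARC, a collagen-binding matrix protein, divided the members along the same line. The clause had capped it at 100 per 10000, and beneath that cap the members fell into 2 groups with few cells between them. There were 387 members below 10 per 10000, then 19 from 10 to 20, 7 from 20 to 30 and 16 from 30 to 40, after which the number went up to 71 from 40 to 60, 133 from 60 to 80 and 161 from 80 to 100. A division at 20, chosen after the values were seen, gave 406 SPARC-low members and 388 SPARC-intermediate members. The first group had a median of 1.33 per 10000 of SPARC and the second 74.7.

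PGRP-LB, which the rule did not use, followed this division. SPARC-low members had a median of 1.40 per 10000, with 128 cells at 0, and 25 of 406 (6.16%, 4.02 to 8.96) reached 20. SPARC-intermediate members had a median of 93.0, with 2 cells at 0, and 361 of 388 (93.0%, 90.04 to 95.4) reached 20. The summed levels were 504 and 9655 CPM, a ratio of 0.0522 (0.0502 to 0.0543). With each cell given the same weight the ratio was 0.108. Among the SPARC-low members were 8 cells of 1 cluster with a median of 246 per 10000 of PGRP-LB and 604 of procathepsin H, at 2424.5 UMIs per cell.

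**Figure D1:**
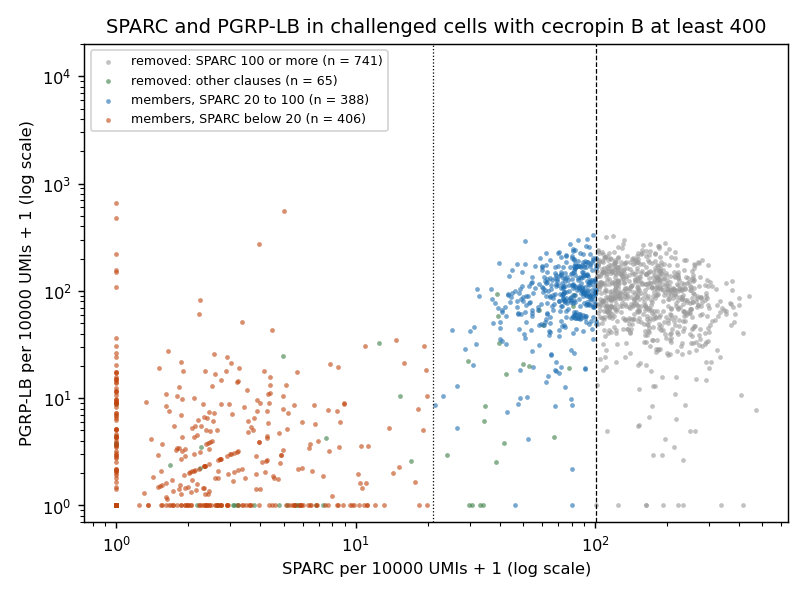
SPARC against PGRP-LB in each of the 1600 challenged cells with at least 400 per 10000 of cecropin B, both per 10000 UMIs with 1 added and on log scales; points are cells, colours show members and removed cells, the dotted line is the division at 20 and the dashed line the limit at 100. The 388 SPARC-intermediate members continue without a gap into the 741 cells removed for SPARC, while most of the 406 SPARC-low members lie apart from both with little PGRP-LB.

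Spodoptericin (SPEXI_LOCUS9978), an antibacterial peptide, was distributed the other way. SPARC-low members had a median of 29.2 per 10000, up to 840, and 12 of 406 had none. In SPARC-intermediate members the median was 0, the highest value was 531 and 237 of 388 had none. The levels were 3484 and 613 CPM, a ratio of 5.69 (5.43 to 5.96), which was 8.56 with each cell given the same weight and 10.2 with the members divided at 40 of SPARC. At equal depth of 2000 UMIs, 79.8% of SPARC-low members and 18.3% of SPARC-intermediate members had at least 1 spodoptericin molecule, beside 46.2% of the procathepsin H-rich cells. The groups overlapped, with 14 SPARC-intermediate members (3.61%) and 141 SPARC-low members (34.7%) at 50 per 10000 or more.

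**Figure D2:**
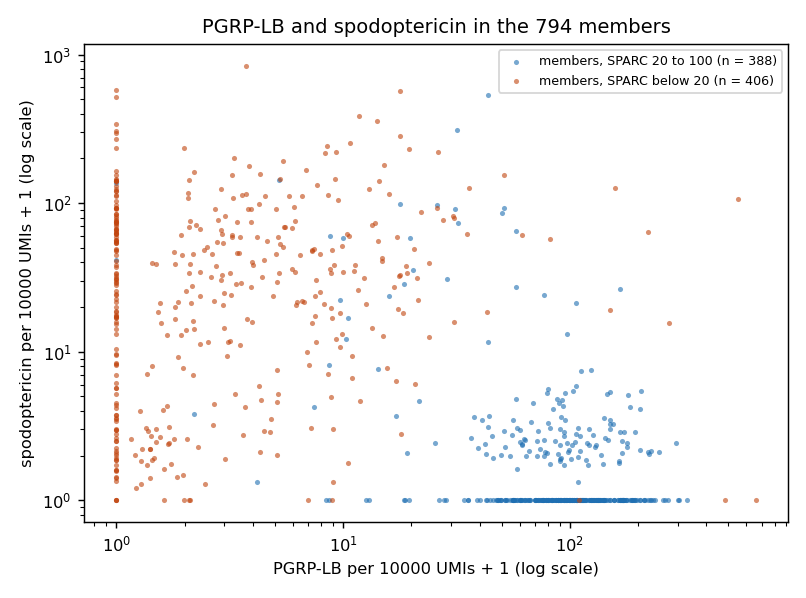
PGRP-LB against spodoptericin in the 794 members, per 10000 UMIs of the cell with 1 added, on log scales; each point is a cell, coloured by SPARC. SPARC-low members lie mostly to the left with a median of 29.2 of spodoptericin, and SPARC-intermediate members mostly to the right with a median of 0.

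The division reached far beyond these genes. Of 1551 genes with at least 100 CPM in either group, 343 (22.1%) were at least 2-fold higher and 295 (19.0%) at least 2-fold lower in SPARC-low than in SPARC-intermediate members, and the median ratio was 1.18. These counts and the CPM that follow come from sums, which lean on the deepest cells. Of the SPARC-low members, 87 lay in cluster 6, described further on, whose members had a median of 24664 UMIs. Hemocytin (SPEXI_LOCUS10914), a clotting protein related to hemolectin, was at 108 against 3917 CPM, a ratio of 0.0275 (0.0253 to 0.0299), or 0.0481 divided at 40. A hypothetical protein abundant in SPARC-rich cells (SPEXI_LOCUS11054) was at 216 against 5171, a ratio of 0.0417, or 0.0683 divided at 40. The opposite order was seen for hemicentin 1-like (SPEXI_LOCUS174), an extracellular matrix protein, at 2260 against 562 CPM, a ratio of 4.02 that was 6.86 without called doublets and 11.2 with equal weights. Of it, 52 SPARC-low members (12.8%) against 5 SPARC-intermediate members (1.29%) had 100 per 10000 or more. Spätzle (SPEXI_LOCUS12010), the Toll ligand, was at 406 against 89.4 CPM, a ratio of 4.54 (4.01 to 5.15) from sums alone. Sodium/calcium exchanger regulatory protein (SPEXI_LOCUS6327) was at 10566 against 3980. Its medians per cell were both 20.5 per 10000, while the upper quartiles were 95.1 and 30.2.

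A gene without a name, SPEXI_LOCUS4592, had 2358 CPM in SPARC-low and 153 in SPARC-intermediate members, a ratio of 15.4 (14.1 to 16.9). It reached 10 per 10000 in 168 of 406 SPARC-low members (41.4%, 36.5 to 46.3) and 12 of 388 SPARC-intermediate members (3.09%). Its highest value in a cell was 609 and 165 SPARC-low members had none, so it marked some of them and not all. SPARC-low members also held more UMIs, with a median of 10175.5 (2002 to 63836) against 7418 (2198 to 36495) per cell. At equal depth they still had more genes per cell, a median of 821.5 against 742.5. The called doublets among members were all in the SPARC-intermediate group, 10 of 388. For SPARC-low members, 0 of 406 allows a share of called doublets of up to 0.739% by the limit of 3 counts and 0.904% by the exact interval.

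SPARC-intermediate members were 2-fold apart in few genes from the strong expressers that had been removed for SPARC. Only 37 (3.03%) of 1223 genes with at least 100 CPM were 2-fold higher in the members, and 34 (2.78%) were 2-fold lower. Cecropin A1 had a ratio of 0.974 (0.964 to 0.985) and PGRP-LB of 0.955 (0.943 to 0.968). The removed cells had a median of 89.1 per 10000 of PGRP-LB and 701 of 741 (94.6%) reached 20, which was close to the 93.0% of SPARC-intermediate members. SPARC itself separated these groups. Hemocytin was at 3917 against 9469 CPM and the hypothetical protein SPEXI_LOCUS11054 at 5171 against 19254. Spodoptericin was higher in the members, at 613 against 81.0.

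SPARC-low members were set beside the cells that passed the same rule without challenge. The 66 naïve cells all had SPARC below 20, with a median of 1.43 per 10000 and 16.4 at the highest. Their median of PGRP-LB was 0, and 2 of 66 (3.03%) reached 20. Cecropin B was at 51102 CPM in these naïve cells and 58214 in SPARC-low members, and cecropin A1 at 10410 and 11476, a ratio of 1.10 (1.07 to 1.13). SPEXI_LOCUS4592 was at 2913 in the naïve cells, a ratio of 0.809 (0.767 to 0.854), and 44 of 66 naïve cells (66.7%, 54.0 to 77.8) had at least 10 per 10000 of it. Spodoptericin was lower in SPARC-low members, at 3484 against 11651, a ratio of 0.299 (0.291 to 0.308), with a naïve median of 75.7 per 10000 against 29.2. HSP70 cognate 4 (SPEXI_LOCUS11970), a constitutive chaperone, was lower as well, at 3543 against 8257. Sodium/calcium exchanger regulatory protein had a ratio of 13.2 (12.0 to 14.5) and spätzle of 5.57 (4.04 to 7.89). These sums lean on the deepest cells. SPARC-low members belonged to several clusters described further on, and 87 of them lay in cluster 6, whose members had a median of 24664 UMIs, whereas the naïve cells were not clustered. With each cell given the same weight the ratios were 0.453 for spodoptericin, 0.459 for HSP70 cognate 4, 7.59 for the exchanger regulatory protein and 3.63 for spätzle. Without the cells of cluster 6 they were 0.483, 0.483, 4.35 and 2.33. PGRP-LB had a ratio of 1.86 from sums, 4.34 with equal weights and 2.75 without cluster 6, and SPEXI_LOCUS4592 turned to 1.33 without cluster 6. Of 1412 genes, 112 (7.93%) were at least 2-fold higher and 114 (8.07%) at least 2-fold lower in SPARC-low members. The lower genes numbered 74 with equal weights and 56 without cluster 6, where the number of genes compared can differ. The 66 cells are few, the libraries were made from different animals, and the naïve cells were shallower, with a median of 5931.5 UMIs in these 66 against 10175.5 in SPARC-low members.

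The proportion of the 2 cecropins was taken in each cell, with the gene of the rule as its denominator. Cecropin A1 had a median of 0.211 molecules for each cecropin B molecule in a member, between 0.0217 and 0.932, and the other cells a median of 0.333. The lowest value belonged to the member with the least cecropin A1, a cell of 2030 UMIs. The median was 0.176 in SPARC-low and 0.242 in SPARC-intermediate members, and 0.153 in naïve cells of the same rule. Cecropin A1 per cell had a median of 103 per 10000 in SPARC-low and 144 in SPARC-intermediate members, and the summed ratio was 0.755 (0.746 to 0.764). The levels of the 2 genes went together loosely across members (Spearman 0.34 over 794 cells), less than among the 4924 cells that passed every clause but had less cecropin B (0.81), where the range of cecropin B was not cut off at its lower end. Points are cells of 1 library and share its depth, so these values are descriptions.

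**Figure D3:**
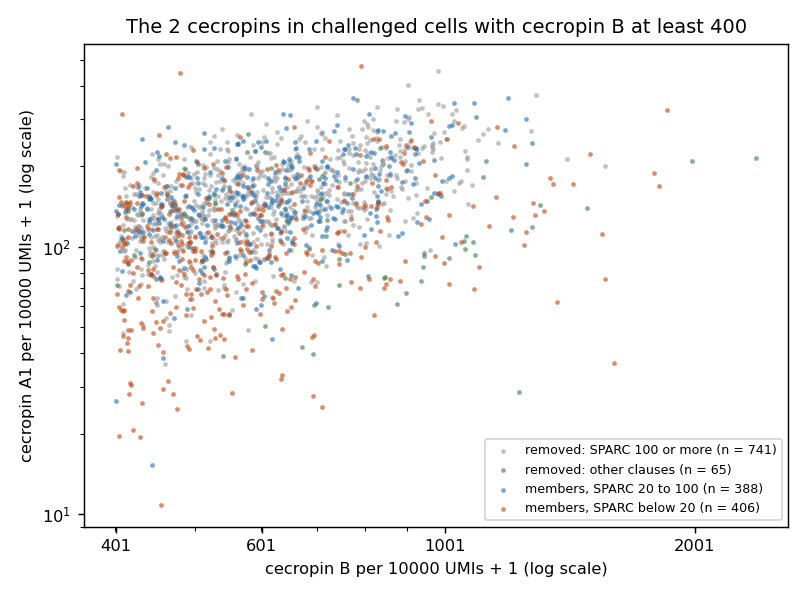
Cecropin B against cecropin A1 in each of the 1600 challenged cells with cecropin B of at least 400 per 10000, per 10000 UMIs of the cell with 1 added, on log scales; colours as for SPARC and PGRP-LB. The groups overlap along cecropin B, and SPARC-low members (median 103) reach lower cecropin A1 than SPARC-intermediate members (median 144).

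Cecropins form a family of similar genes, and UMIs of near-identical copies could have been assigned to one another. The locus numbered directly before cecropin A1 and the 2 directly after it were also at least 2-fold higher in members than in the other cells, at 4198, 7024 and 1432 against 1102, 1835 and 237 CPM. The files do not name these loci. The first of them was higher in SPARC-low than in SPARC-intermediate members, 4983 against 2864 CPM, and the second lower, 4637 against 11079. Cecropin B itself was at 58214 and 61503 CPM. Whether UMIs were assigned between these loci was not tested.

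Compared with all other challenged cells, 98 (6.99%) of 1403 genes with at least 100 CPM were at least 2-fold higher in members, 80 (5.7%) were at least 2-fold lower, and the median ratio was 1.00. Among the 9 genes of immune effectors and recognition, 5 had at least 100 CPM and all 5 were 2-fold higher: both cecropins, spodoptericin at 2.56 (2.52 to 2.60), PGRP-LB, and a small PGRP (SPEXI_LOCUS6460) at 2.35 (2.21 to 2.51). Spodoptericin was at 1.61 without the 3 clauses and the small PGRP at 1.57 with SPARC below 20, both under 2-fold. Cecropin B is the gene of the rule, and cecropin A1 and PGRP-LB had been named as markers of these cells from the same data, so the count is no independent sign. The small PGRP was at 139 against 58.9 CPM, and 378 members had none of it. Another 2 small PGRPs were below that level, SPEXI_LOCUS12275 at 59.3 against 16.9 and SPEXI_LOCUS12278 at 25.8 against 5.26 CPM. The first of these was found mainly in SPARC-low members, at 87.8 against 10.9, whereas SPEXI_LOCUS6460 was higher in SPARC-intermediate members, at 203 against 101, a ratio of 0.496 for SPARC-low members that was 0.724 with equal weights.

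Genes of the Toll pathway were low in members and in the other cells. Only 1 of 9, spätzle, had at least 100 CPM, so the others could not be called. Spätzle was at 288 against 401 in the other cells, a ratio of 0.720 (0.691 to 0.750), and was not 2-fold apart. That ratio moved with the setting, to 0.310 with equal weights, 0.390 without the clauses, 0.995 at 5000 UMIs or more and 1.04 with SPARC below 20. MyD88 (SPEXI_LOCUS11397), the adaptor of the Toll receptor, was at 26.1 against 27.2, and the kinase Pelle (SPEXI_LOCUS6804) at 30.2 against 25.4. The most abundant of 4 Toll receptors, SPEXI_LOCUS78, was at 26.2 against 22.5, and 1 of the 4 had no UMI in any member.

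The prophenoloxidases of melanization were at 0.0657 (PPO1) and 0.0328 (PPO2) of the level of the other cells. The PPO clause kept PPO-rich cells out of the members but not out of the other cells. It removed only 25 of the 1600 strong expressers, and how much it contributed to these ratios was not tested. Against the 4924 cells that passed the same clauses the ratios were 0.762 and 0.635. The cathepsin genes, which no clause touched, were lower in members, all 3 of 3 at least 2-fold with a median ratio of 0.138, but 0 of 3 were 2-fold lower among cells with at least 5000 UMIs. Procathepsin H (SPEXI_LOCUS11288), a lysosomal cysteine protease, was at 1528 against 11108 CPM, a ratio of 0.138 (0.135 to 0.140), and cysteine proteinase 1-like (SPEXI_LOCUS6153) at 1029 against 7617, a ratio of 0.135. At 5000 UMIs or more these ratios were 0.651 and 0.594, and with each cell given the same weight 0.0770 and 0.0781. A hypothetical protein of the same gene group, SPEXI_LOCUS2768, was at 1270 against 3780, but the order turned at that depth (ratio 1.34). There were 46 members (5.79%, 4.27 to 7.65) with at least 100 per 10000 of procathepsin H, beside 22.0% of the other cells. Between the groups of members the order of procathepsin H depended on the weighting: SPARC-low over SPARC-intermediate was 0.452 from sums and 1.11 with each cell weighted equally.

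Of 5 matrix genes, 4 had at least 100 CPM and 3 of them were 2-fold lower in members, SPARC and hemicentin 2-like by the rule itself and hemocytin. Hemocytin was at 1520 in members against 3606 CPM in the other cells (0.421, or 0.534 with cecropin B of at least 500) but 953 in the clause-passing cells with less cecropin B (1.59). Hemicentin 1-like was at 1631 against 2225, a ratio of 0.733 (0.720 to 0.745). Translation genes hardly differed: the 7 ribosomal and elongation genes had a median ratio of 0.94 and none was 2-fold apart, with ribosomal protein S23 (SPEXI_LOCUS8825) at 12331 against 13094. HSP70 cognate 4 had a ratio of 1.04 (1.03 to 1.05). It belonged to 8 listed loci of various roles, of which 7 had at least 100 CPM, with a median ratio of 1.04, 1 without a name 2-fold higher and 1, the hypothetical protein SPEXI_LOCUS11054, 2-fold lower at 0.212. That ratio was 1.07 without the 3 clauses and 1.16 against the clause-passing cells.

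Markers of other hemocytes were measured in the same sums. The 7 loci that led plasmatocyte clusters in the study summed to 1153 CPM in members and 871 in the other cells, with 1 at 0 in both, and of the 3 with at least 100 CPM none was 2-fold apart. Paired mesoderm homeobox 2A (SPEXI_LOCUS5793), the plasmatocyte marker, was at 519 against 420.3, so it did not set the members apart. The 3 spherulocyte loci summed to 4.29 and 8.62 CPM and the 3 muscle loci to 52.0 and 53.5. The hypothetical proteins SPEXI_LOCUS5543 and SPEXI_LOCUS5542, which led naïve oenocytoid clusters in the study, summed to 692 and 1399. Within the members, these last 2 loci together were at 1002 in the SPARC-low and 165 in the SPARC-intermediate group.

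Against the 4924 clause-passing cells with less cecropin B, which leaves cecropin B as the only difference in the rule, 105 (7.24%) of 1450 genes were at least 2-fold higher and 40 (2.76%) lower. Cecropin A1 was 3.22-fold higher (3.20 to 3.24) and PGRP-LB 6.60-fold (6.49 to 6.70), at 3895 against 590.4 CPM. Spodoptericin was 1.71-fold higher (1.68 to 1.74). Spätzle had a ratio of 0.442 (0.424 to 0.460), hemicentin 1-like of 0.446 and sodium/calcium exchanger regulatory protein of 0.495 (0.491 to 0.499). These comparison cells included many rich in procathepsin H, 1754 of 4924 (35.6%) having at least 100 per 10000, and had a median of 5798 UMIs. What this contributed to the ratios was not tested.

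The largest ratios over the other cells belonged to genes without a name. SPEXI_LOCUS4592 was 19.9-fold higher (19.3 to 20.5), at 1541 against 77.3 CPM, and SPEXI_LOCUS3470 12.7-fold (11.6 to 13.9), at 127 against 10.0. Both were mostly in the SPARC-low group, SPEXI_LOCUS3470 at 189 against 21.9. Apart from PPO2, the lowest ratios were those of SPEXI_LOCUS11161, at 6.49 against 129.6 CPM (0.0501), and SPEXI_LOCUS10924, at 9.73 against 194 (0.0502).

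**Figure D4:**
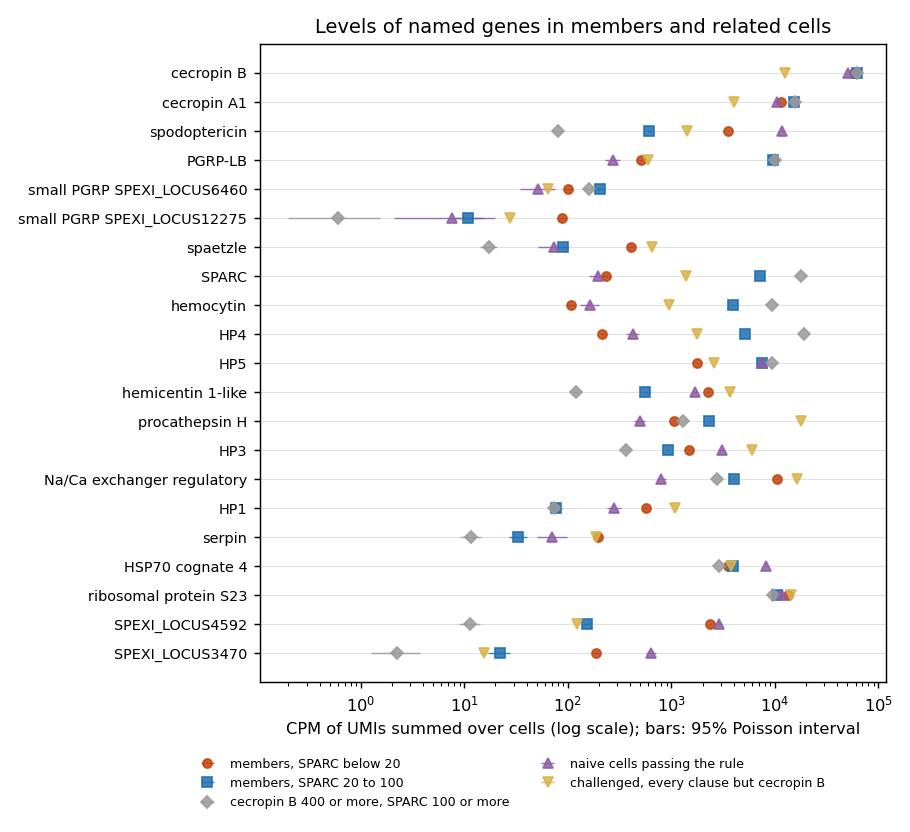
Levels of 21 genes in CPM, from UMIs summed over cells (log scale), for SPARC-low and SPARC-intermediate members, cells removed for SPARC, naïve cells passing the rule and challenged cells passing every clause but cecropin B; bars are 95% Poisson intervals and HP marks hypothetical proteins. PGRP-LB is near 9655 to 10106 in SPARC-intermediate members and removed cells and at 270.4 to 590.4 in the other 3 groups, and SPEXI_LOCUS4592 is near 2358 to 2913 in SPARC-low members and naïve cells.

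The likeness of members in genes outside the rule was described from the 20 nearest neighbours of each cell, in 30 principal components of 2000 variable genes without the genes of the rule. Of members' neighbours, 49.1% were members, who made up 8.49% of all cells considered. This was mostly likeness within each of the 2 groups of members, which had few neighbours in each other. SPARC-low members had 48.3% of their neighbours among SPARC-low members and 1.44% among SPARC-intermediate members. SPARC-intermediate members had 45.7% among themselves, 29.8% among the cells removed for SPARC and 2.80% among SPARC-low members. Without cecropin A1 and PGRP-LB the shares of like neighbours were 47.9% and 46.2%. SPARC-low members had many neighbours, 46.9%, among the clause-passing cells with less cecropin B, while SPARC-intermediate members had 12.8%. The cells removed for SPARC had 63.7% of their neighbours among themselves and 13.5% among SPARC-intermediate members.

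Leiden clustering of the same neighbours gave 25 clusters, of which 15 held a member and 9 held at least 10, with 772 members in these 9. Clusters were numbered by size and given no names. Cluster 4 held 314 members, all SPARC-intermediate, and they were 47.3% of its cells. Its members had medians of 95.6 per 10000 of PGRP-LB and 74.2 of SPARC. PGRP-LB was at 10704 CPM in these members and 10505 in the 350 other cells of the cluster. Another 38 SPARC-intermediate members lay in cluster 0, which held 489 of the cells removed for SPARC. These 38 had more of the SPARC-associated hypothetical protein SPEXI_LOCUS11054 than those of cluster 4, medians of 191 and 24.7 per 10000.

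SPARC-low members were spread over more clusters. Cluster 8 held 218 members, 202 of them SPARC-low, and they were 39.6% of its cells. Their median of SPEXI_LOCUS4592 was 35.6 per 10000 and of spodoptericin 34.4. Within cluster 8, members had cecropin A1 at 12333 against 6229 CPM in the 333 other cells and spodoptericin at 5223 against 2777. Cluster 6 held 91 members, 87 SPARC-low, with a median of 24664 UMIs per cell. They had a median of 188 per 10000 of sodium/calcium exchanger regulatory protein and 1.43 of spodoptericin, and none of SPEXI_LOCUS4592 at the median. Scrublet called 33 of the 572 cells of this cluster as doublets, none of them a SPARC-low member. In clusters 7 and 24, hemicentin 1-like had a median of 186 and 175 per 10000 in 47 and 19 members. Members made up 59.4% of cluster 24, which had only 32 cells. In cluster 21, 63 of 91 cells had at least 400 per 10000 of cecropin B and 21 were members, whose spodoptericin had a median of 162 per 10000, the highest among the 9 clusters. Clusters 11 and 23 held 12 members each.

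**Figure D5:**
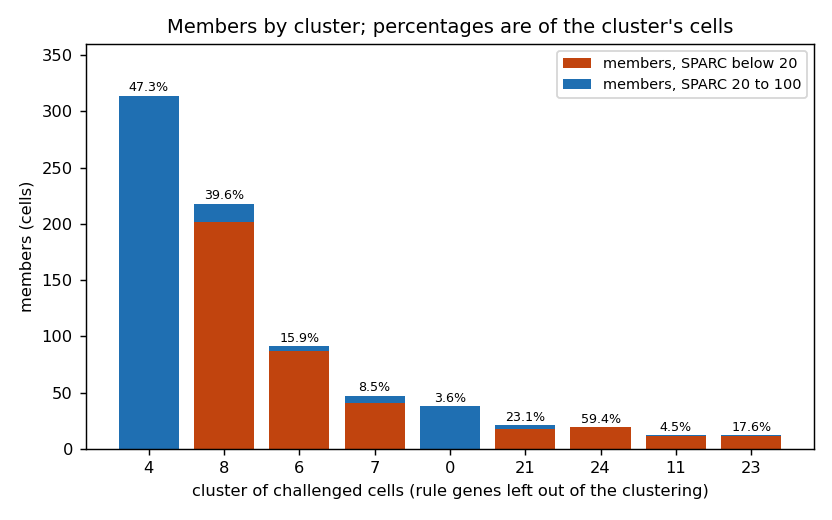
Number of members in each of the 9 clusters with at least 10 members, split into SPARC-low and SPARC-intermediate members; the percentage above a bar is the share of members among the cluster's cells. Cluster 4 holds 314 SPARC-intermediate members and no SPARC-low member, and SPARC-low members are spread over 7 of the 9 clusters.

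Cecropin A1 was high in members of every one of these clusters, with medians from 89.3 to 150.3 per 10000. PGRP-LB was not, with medians of 95.6 and 107 in clusters 4 and 0 and of at most 4.71 in the other 7. The small PGRP SPEXI_LOCUS12275 was highest in members of cluster 6, at 143 CPM, and SPEXI_LOCUS6460 in those of cluster 7, at 422.

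Members were also ordered by cecropin B and divided into 3 parts of 265, 265 and 264 cells, with medians of 452, 574 and 802 per 10000. The order uses the gene of the rule, so these values are a description. The share of SPARC-low members was 61.5% in the lowest part, 45.7% in the middle and 46.2% in the highest. From the lowest part to the highest, PGRP-LB was at 2297, 4316 and 5804 CPM, cecropin A1 at 10797.5, 12378 and 16525, and sodium/calcium exchanger regulatory protein at 11286, 7966 and 3553. Spodoptericin was at 2094, 1858 and 3578, and SPEXI_LOCUS4592 at 792, 1307 and 2945. Median UMIs per cell were 9331, 8085 and 7612. The parts thus differed in depth and in their share of SPARC-low members, and what these contributed to the levels was not tested. Within the groups, the Spearman correlation of cecropin B with PGRP-LB was 0.28 over 406 SPARC-low and 0.22 over 388 SPARC-intermediate members, cells that share 1 library and its depth. At 1000 per 10000 or more of cecropin B there were 29 SPARC-low members (7.14%, 4.84 to 10.1) and 14 SPARC-intermediate members (3.61%, 1.99 to 5.98), so that such levels were found in both groups. The highest level was 1850 per 10000 in SPARC-low and 1273 in SPARC-intermediate members.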

How the data were processed

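Hemocytes pooled from larvae of 1 treatment made 1 library each. The authors processed 10x Chromium 3′ reads with Cell Ranger (7.2.0 in the file header; the notes of the submitters also name STAR 2.7.10a, Bowtie2 2.4.5 and Seurat 4.0) and deposited raw UMI counts of 13002 genes per called cell, without normalization. The genome build is not given in the sources used here, and no column was left out. Genes carry numbers only; names came from the study's marker lists and pathway diagrams. The study's mitochondrial filter was not applied.

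The members, gene lists and alternatives were chosen with earlier results of these data known. Genes named are the 59 loci of fixed lists and, of unnamed loci, the 2 with the highest and 2 with the lowest ratio over the other cells. A gene was taken as apart at 2-fold with at least 100 CPM in the higher group. Doublets were called with Scrublet in scanpy 1.11.5 for cells of at least 200 genes. Thinning drew 2000 UMIs per cell. Neighbours and clusters used scikit-learn 1.9.0, igraph 0.11.9 and leidenalg 0.10.2 (resolution 1), and other steps scipy 1.17.1, matplotlib 3.10.9, pandas 2.3.3 and numpy 2.4.6 under Python 3.11.15. The code was checked on simulated counts with known folds. Alternatives changed the thresholds, depth, clauses, doublets, scaling, weighting, comparison cells, gene minimum, components and neighbours. The division by SPARC, its alternatives, those for the naïve cells and the cluster resolutions were chosen after seeing the data.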

Additional observations from a re-analysis of the deposited data

How the results depend on the processing

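With 1 library per treatment, replicate error could not be measured and no alternative tests it. No paired analysis was possible because each treatment had 1 library and the results come from no test. The rarest genes are limited by depth, at a floor of 3 UMIs. Of the alternatives, a SPARC limit of 20, the divisions at 10 and 40, all of those applied to the division of the members and both for the naïve cells were chosen after seeing the data.

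Without the 3 clauses there were 1600 members (17.1%), and with SPARC below 20 there were 406 (4.34%). Genes at least 2-fold lower in members numbered 50 without the clauses, 157 with SPARC below 20 and 40 against the clause-passing cells (2.76% of 1450). The number of genes compared differed between settings, so counts of different settings are not shares of the same total. A minimum of 20 CPM gave 189 higher and 209 lower, and 3-fold gave 42 and 35 of 1403. With no CPM minimum but at least 10 UMIs over members and other cells together, the counts were 661 and 1407. The cecropin A1 ratio of members over other cells was 2.38 and 2.71 with cecropin B of at least 300 and 500, 2.63 and 2.42 with at least 1000 and 5000 UMIs, 3.48 without clauses, 2.12 with SPARC below 20, 2.63 and 2.51 with totals without the genes of the rule or the 50 most abundant genes, 2.97 with equal weights, 3.22 against the clause-passing cells and 2.99 after thinning. The PGRP-LB ratio was 1.68 and 2.98 at those cecropin B levels, 2.28 at 5000 UMIs, 7.02 without clauses, 2.39 and 2.28 with the other totals, 2.68 with equal weights, 6.60 against the clause-passing cells and 2.70 after thinning, and it turned to 0.255 with SPARC below 20. SPEXI_LOCUS2768 turned to 1.34 at 5000 UMIs. Hemocytin turned to 1.56 without clauses and 1.59 against the clause-passing cells, and SPEXI_LOCUS11054 to 1.07 and 1.16. Of SPARC-low over SPARC-intermediate members, cecropin A1 was 0.786 divided at 10, 0.745 without doublets, 0.745 with equal weights and 0.742 after thinning. PGRP-LB was 0.0663 divided at 40, 0.0502 without doublets, 0.108 with equal weights and 0.110 after thinning. Procathepsin H turned to 1.11 and 1.15 and cysteine proteinase 1-like to 1.13 and 1.17 with equal weights and after thinning. Of SPARC-low members over naïve cells, cecropin A1 was 1.17 with equal weights and 1.22 without cluster 6, PGRP-LB 4.34 and 2.75, and genes 2-fold lower 74 and 56, while SPEXI_LOCUS4592 turned to 1.33 without cluster 6. The cause of these changes was not tested. The neighbour shares and the number of clusters with at least 10 members kept within their limits of change under every alternative run for them.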
